A study of Homo sapiens with 6 samples.

Results

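SR proteins and hnRNPs are families of RNA-binding proteins that decide, exon by exon, how a pre-mRNA is spliced. SR proteins carry a tail rich in arginine and serine, usually bind exonic enhancers and promote the use of the exon. hnRNPs coat the nascent transcript and often act the other way, silencing exons, and several of them also take part in mRNA export, decay and translation. Many SR genes limit their own output by splicing in an exon that sends the transcript to nonsense-mediated decay. In myeloid leukemia this layer is of interest because SRSF2 and core spliceosome genes are recurrently mutated.

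The genes examined here were chosen by name, not by their values, though with earlier results of these data known. They are the protein-coding genes of GENCODE release 29 with a symbol starting with SRSF and a digit or with HNRNP, together with TRA2A, TRA2B and PTBP1 to PTBP3. Of 44 such genes 40 were in the expression table of 32364 genes, which are 12 SR genes, 2 TRA2 genes, 23 hnRNP genes and 3 PTBP genes. HNRNPCL1, HNRNPCL2, HNRNPCL3 and HNRNPCL4 were not analysed here. The libraries came from Kasumi-1, an acute myeloid leukemia cell line with the fusion of RUNX1 and RUNX1T1. The control group holds 3 libraries of cells that, by the methods, received the solvent DMSO, and the I13 group holds 3 libraries of cells incubated with 0.5 µM I13, a histone deacetylase inhibitor, both for 48 h. The values are FPKM, that is fragments scaled to exon length and to the mapped fragments of the library. For 36 of the 40 genes this length was that of all annotated exons together, so levels compared between genes depend on the annotation. HNRNPU had 39.2 FPKM from 13745 to 15420 fragments over 22512 exon bases. HNRNPAB had 159 FPKM from 5151 to 5912 fragments over 2144 exon bases. The comparison of I13 and control cells asks which mRNAs changed with the inhibitor.

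The depth lay between 15281052 and 17221345 mapped fragments per library. A principal component analysis of the 4133 genes averaging 10 FPKM or more placed control replicate 3 and I13 replicate 2 together, away from the remaining 4 libraries, on its leading axis with 43.3% of the variance. The groups parted on the next axis, with 20.5%. No batch is named for this pair in the sources used here, and values with and without it are given below. The myeloid blast markers MPO, KIT, CD34, CD33 and ELANE were all above an FPKM of 1, with a summed FPKM between 14262 and 15354 in control and between 12877 and 14658 in I13 libraries. The fibroblast genes COL1A1, COL1A2 and COL3A1 were at 0. The 3 T cell markers together had at most 0.438 FPKM in any library. The B cell markers had a summed FPKM between 1.46 and 2.60, mainly from CD79A, and the erythroid markers at most 0.198. EPCAM, an epithelial gene, was the single epithelial marker in the table, between 20.8 and 26.5 FPKM in control and between 22.2 and 26.2 FPKM in I13 libraries. The part of CD79A and EPCAM in the results was not tested.

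Most of the splicing factor genes were strongly expressed. Of the 40 genes 33 averaged 10 FPKM or more. The median was 44.3 FPKM over the 39 genes averaging 0.1 FPKM or more, against 5.47 FPKM for the 11931 protein-coding genes at or above that level. HNRNPA1, which binds exonic and intronic silencers, led with 423 ± 29.2 FPKM (SD, n = 6 libraries), or between 32295 and 39499 fragments per library. HNRNPAB and HNRNPF followed with 159 ± 8.34 and 159 ± 1.91 FPKM and could not be ordered, since the ratio of HNRNPAB to HNRNPF lay between 0.921 and 1.07 over the libraries. HNRNPA2B1 with 136 ± 11.1 FPKM, PTBP1 with 133 ± 5.98 FPKM and HNRNPK with 127 ± 3.84 FPKM came next and also overlapped. HNRNPC, which binds uridine-rich tracts, was the last gene above 100 FPKM, with 108 ± 1.63 FPKM. The SR genes had a narrower range and no member of this height. SRSF6, SRSF1 and SRSF2 were the highest with 65.8, 61.8 and 61.3 FPKM, a range within the spread over libraries, and the median of the 12 SR genes was 37.7 FPKM against 68.7 FPKM for 22 hnRNP genes.

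Related genes differed widely in level. PTBP1, the form used by most cells, was between 58.4 and 88.2 times as high as PTBP2, its neuronal relative, in the 6 libraries. PTBP3, known from blood cells, lay between them at 21.4 ± 1.66 FPKM. HNRNPL, which binds CA repeats, was between 55.8 and 143 times as high as HNRNPLL, which is best known for the splicing of PTPRC in activated lymphocytes. SRSF10 was between 37.3 and 63.9 times as high as SRSF12. SRSF12 and HNRNPLL had 0.435 and 0.346 FPKM and only 21 to 41 and 28 to 46 fragments per library, so their values are the least precise. In other pairs both genes were well expressed. TRA2B was between 1.37 and 1.60 times as high as TRA2A in FPKM. In fragments the gap was wider, with 5487 to 6119 for TRA2B and 1023 to 1247 for TRA2A. The annotated exon lengths are 11769 bases for TRA2B and 3516 for TRA2A, so their ratio in FPKM depends on the annotation. HNRNPD and HNRNPDL differed by less than the spread between libraries, with a ratio between 0.886 and 1.03. HNRNPUL2-BSCL2, a readthrough of HNRNPUL2 into its neighbour, had 2 fragments in I13 replicate 1 and 0 in the other libraries, and was too low to be tested.

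**Figure D1:**
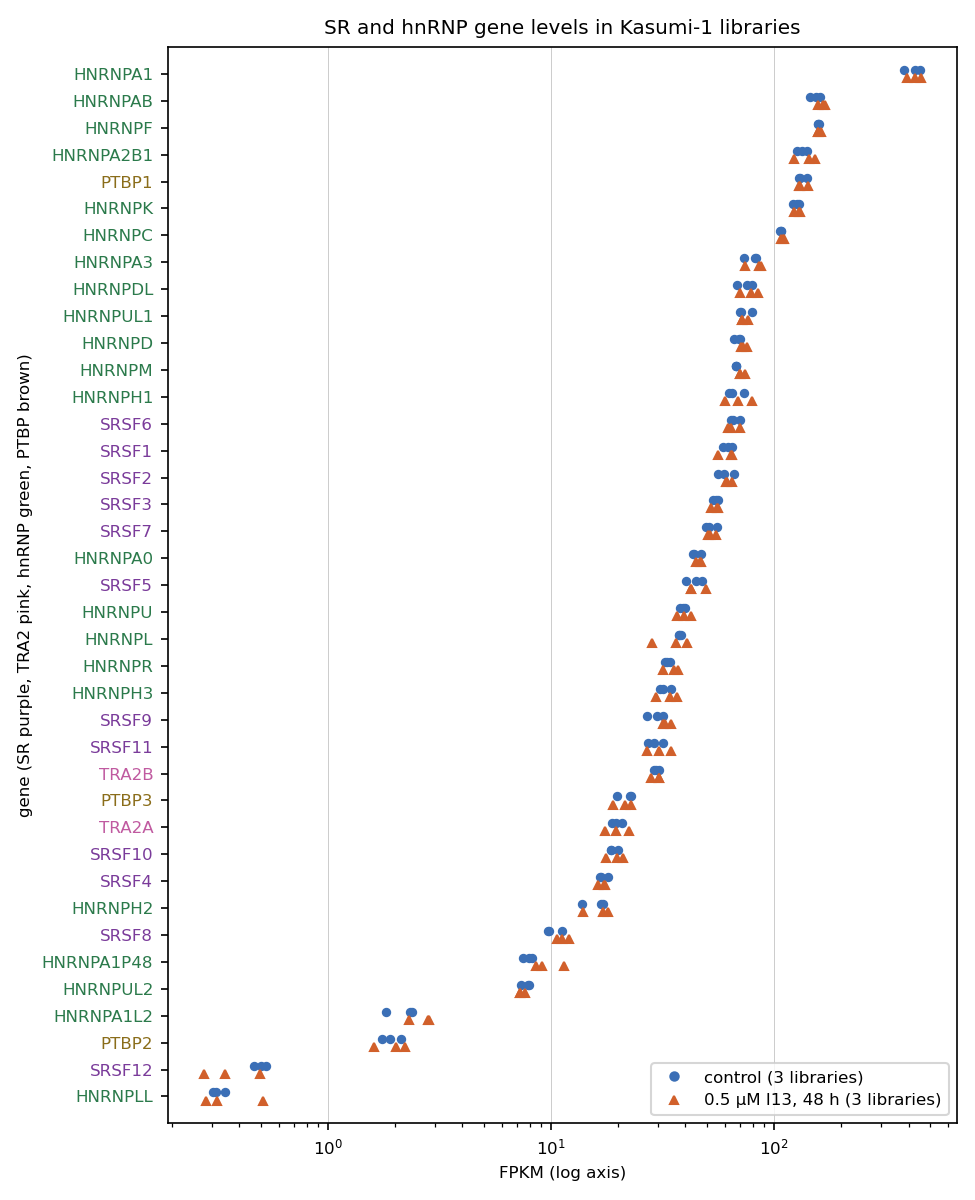
FPKM of the 39 tested genes on a log axis, one row per gene in order of mean level, with circles for the 3 control and triangles for the 3 I13 libraries. Circles and triangles of most genes lie close together on this axis, which spans HNRNPLL at 0.346 FPKM to HNRNPA1 at 423 FPKM. Low genes spread more, and the highest library was 1.90 times the lowest in SRSF12 and 1.79 times in HNRNPLL.

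Incubation with I13 left the SR and hnRNP mRNAs close to their control levels. None of the 39 genes tested passed an adjusted p of 0.05 by limma on log2(FPKM + 0.1) with Benjamini-Hochberg adjustment over 18726 genes, and the smallest adjusted p among them was 0.947. Of all genes tested 0% passed it. At an unadjusted p under 0.05, 1 of the 39 genes was higher and 0 were lower (2.56%), while 5.14% of all genes tested were called, 2.55% higher and 2.59% lower, and 5.25% of those averaging 10 FPKM or more. By voom on the recovered fragments, 0 passed the adjusted p (0.0433% of all genes did) and 2 were higher at the unadjusted p, where 5.39% of all genes were called, 2.58% higher and 2.81% lower. Their log2 fold changes had a median of 0.028, where that of all genes was 0.0058. Of the 39 values 28 were positive and 11 negative. Of all genes 51.8% were positive, and of the 4133 genes averaging 10 FPKM or more 2238 were. The largest difference in size was -0.36 in SRSF12, and no gene reached the fold threshold of 0.58 on the log2 scale used in the study, which 13.1% of all genes did. That share came mainly from low genes, since only 5 of the 4133 genes averaging 10 FPKM or more reached the threshold, and 33 of the genes described here are at that level. In bulk RNA, fewer cells of a type and less RNA per cell cannot be told apart. The study describes its sequencing as repeated in independent experiments, but the labels do not tie the libraries to separate cultures, so p-values measure only the spread between these libraries.

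The intervals of the differences were narrow for most genes. The 95% interval from limma's standard error lay within 0.58 of 0 on the log2 scale for 36 of the 39 genes, within 0.3 for 29 and within 0.2 for 16. The 3 genes with a wider interval were SRSF12, from -0.98 to 0.26, HNRNPLL, from -0.56 to 0.81, and HNRNPA1L2, from -0.060 to 0.62. A difference of the size of the threshold was therefore not excluded for these 3 genes.

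**Figure D2:**
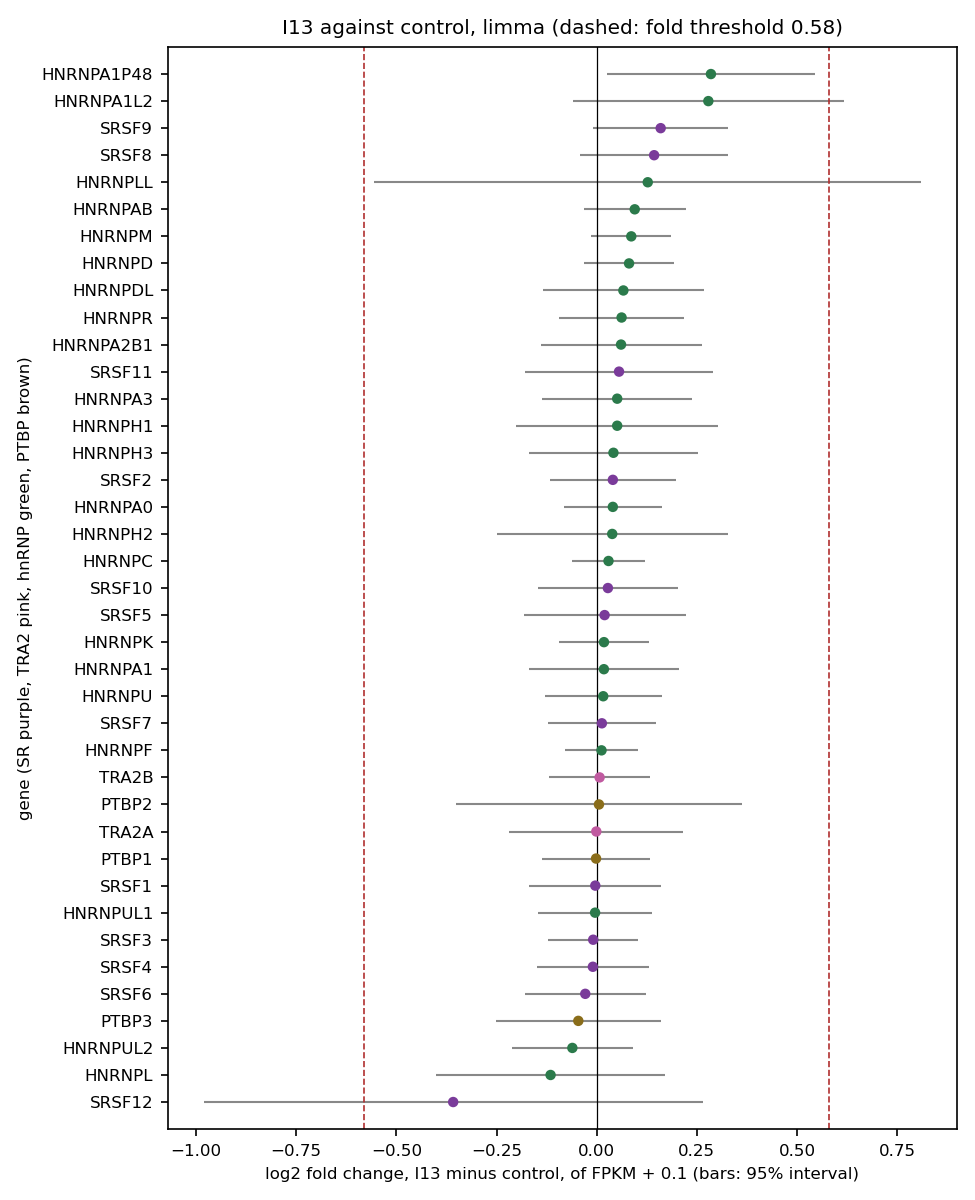
Log2 fold change of I13 against control for the 39 tested genes, ordered by size, with 95% intervals from limma as bars and the fold threshold of 0.58 as dashed lines. HNRNPA1P48 alone has an interval that does not include 0, from 0.026 to 0.54, and every point lies inside the dashed lines.

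The groups did not overlap in 5 of the 39 genes (12.8%), all with the I13 libraries on the higher side. Of all genes tested 9.52% had groups that did not overlap, 4.88% with I13 above and 4.64% with I13 below, and of those averaging 10 FPKM or more 9.9% did. The 5 genes were SRSF9, HNRNPM, HNRNPD, HNRNPC and HNRNPA1P48. For a single gene, the exact permutation test of 3 against 3 libraries gives a two-sided p of 0.1 at the least. The count depended on the scaling, since 2 genes had no overlap after median scaling, HNRNPA1P48 and HNRNPD (9.47% of all genes), and 2 after quantile normalization, HNRNPA1P48 and HNRNPM (9.94% of all genes). With control replicate 3 and I13 replicate 2 left out, 14 genes were above and 3 below without overlap, where 38% of all genes had no overlap, 21.1% above and 16.9% below. In these 4 libraries 2 genes, HNRNPA1L2 and HNRNPR, had an unadjusted p under 0.05 by limma (8.04% of all genes). With all libraries and a term for the pair there were 2 by limma, HNRNPA1P48 and HNRNPM (7.62% of all genes), and 6 by voom (10.2%). These 6 were HNRNPA1P48, HNRNPAB, HNRNPD, HNRNPM, SRSF8 and SRSF9, all higher in I13. Of them 0 passed the adjusted p (0.607% of all genes).

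Among the SR genes, SRSF9 had the highest log2 fold change. Its FPKM was 31.6, 29.9 and 26.7 in control replicates 1, 2 and 3 and 31.6, 34.3 and 32.5 in I13 replicates 1, 2 and 3. The groups are separated only narrowly, with control replicate 1 close under I13 replicate 1. Limma gave a log2 fold change of 0.16 with a standard error of 0.071, an unadjusted p of 0.0595 and an adjusted p of 0.947. By voom the unadjusted p was 0.0447 and the adjusted p 0.898. Its difference was 0.060 on the log2 scale in the 4 libraries and 0.36 between I13 replicate 2 and control replicate 3. The pair of libraries that stand apart thus holds most of it. With a term for the pair the unadjusted p was 0.0605 by limma. By voom with that term, a fit chosen after seeing the data, it was 0.00809, with an adjusted p of 0.244. SRSF9 shares 1729 of its 3744 exon bases with GATC on the opposite strand, which stood at 2.82 FPKM with a log2 fold change of 0.013. The libraries were made with a stranded kit, and whether the counting used the strand is not given in the sources used here.

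SRSF6 and SRSF1 were the most abundant SR genes and did not separate by treatment. SRSF6 had 63.7, 70.4 and 65.2 FPKM in the control and 63.7, 61.8 and 69.9 FPKM in the I13 libraries, a log2 fold change of -0.029 with an interval from -0.18 to 0.12. SRSF1, the prototype of the family and a regulator of both splicing and translation, had 61.9, 64.9 and 58.7 FPKM in the control and 64.2, 56.2 and 64.9 FPKM in the I13 libraries. Its log2 fold change was -0.0036 with an interval from -0.17 to 0.16, and its lowest value in each group was in control replicate 3 and in I13 replicate 2. AC015813.2 overlaps SRSF1 on the same strand and holds 50.8% of its 50-base words. It has no values in the expression table. How the counting treated fragments that match both genes is not given in the sources used here. SRSF2 was at 60.5 ± 4.99 FPKM (SD, n = 3) in control and 62.1 ± 2.08 FPKM (SD, n = 3) in I13 cells. SRSF8, a gene derived from a reverse-transcribed SRSF2 mRNA, was at 10.2 ± 0.816 and 11.25 ± 0.666 FPKM (SD, n = 3), with a log2 fold change of 0.14 and an interval from -0.042 to 0.33. The remaining SR genes above 10 FPKM, SRSF3, SRSF4, SRSF5, SRSF7, SRSF10 and SRSF11, had log2 fold changes between -0.0096 and 0.056. SRSF3 and SRSF7 are among the SR proteins that also act as adaptors for mRNA export. SRSF12 was at 0.498, 0.525 and 0.465 FPKM in the control and 0.497, 0.277 and 0.345 FPKM in the I13 libraries, and the groups overlapped through I13 replicate 1.

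Both TRA2 genes, relatives of the Drosophila splicing factor Transformer-2, and the PTBP genes had differences close to 0. TRA2B had 29.4, 30.3 and 28.8 FPKM in the control and 30.5, 27.9 and 30.5 FPKM in the I13 libraries (log2 fold change 0.0072, standard error 0.054). TRA2A had 19.5, 20.7 and 18.7 FPKM in the control and 19.5, 17.4 and 22.2 FPKM in the I13 libraries (log2 fold change -0.0010, standard error 0.092). The I13 libraries of both genes enclosed the control libraries, with I13 replicate 2 the lowest of all. PTBP1, a repressor of exons next to pyrimidine tracts, had 129, 130 and 141 FPKM in the control and 130, 141 and 129 FPKM in the I13 libraries. Here control replicate 3 and I13 replicate 2 were the highest of their groups, and the log2 fold change was -0.0017 with an interval from -0.14 to 0.13. PTBP3 had 22.5, 22.8 and 19.8 FPKM in the control and 21.5, 18.9 and 22.7 FPKM in the I13 libraries, where the same pair was the lowest. Its log2 fold change was -0.046 (standard error 0.088), and that of PTBP2 was 0.0056 (standard error 0.15). None of these 5 genes had an unadjusted p under 0.05 by limma or by voom.

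HNRNPA1P48 lies on chromosome 16 from 51553436 to 51647132 of GRCh38. By limma with the treatment as the only factor, it was the single gene of the 39 with an unadjusted p under 0.05. GENCODE release 29 annotates it as protein coding, although its symbol is that of a pseudogene. It belongs with HNRNPA1L2, on chromosome 13 from 52642425 to 52643796, to the copies of HNRNPA1 mRNA in the genome. HNRNPA1 itself lies on chromosome 12 from 54280193 to 54287088. The coding sequence of HNRNPA1P48 is identical to that of HNRNPA1 at 819 of 825 aligned bases (99.3%), with a longest identical run of 373 bases. HNRNPA1L2 is identical at 945 of 960 bases (98.4%).

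The copies stood at a small part of the level of HNRNPA1 and had few fragments. HNRNPA1P48 had 7.93, 8.17 and 7.50 FPKM in control replicates 1, 2 and 3, from 171 to 193 fragments, and 11.4, 9.10 and 8.55 FPKM in I13 replicates 1, 2 and 3, from 180 to 249 fragments. All I13 libraries were above the control libraries, and I13 replicate 1 was far above the rest. Limma gave a log2 fold change of 0.29 with a standard error of 0.11, an unadjusted p of 0.0353 and an adjusted p of 0.947. Without I13 replicate 1 it was 0.16 with an unadjusted p of 0.0806, and the unadjusted p was also above 0.05 without control replicate 1 (0.0707), control replicate 2 (0.0553) or control replicate 3 (0.0992). In the 4 libraries without the pair it was 0.29 with an unadjusted p of 0.117 by limma. HNRNPA1L2 had 2.33, 1.82 and 2.37 FPKM in the control and 2.82, 2.31 and 2.83 FPKM in the I13 libraries, with I13 replicate 2 under the higher control libraries. For this copy limma gave 0.28 on the log2 scale, with an unadjusted p of 0.0932. In the 4 libraries it was 0.43 with an unadjusted p of 0.0432, and within the pair it was -0.033. HNRNPA1 had 450, 429 and 383 FPKM in the control and 455, 395 and 427 FPKM in the I13 libraries, and a log2 fold change of 0.018 (interval from -0.17 to 0.21) that was -0.057 after quantile normalization. Transcripts of other genes hold 51.6% of the 50-base words of HNRNPA1P48 and 58.5% of those of HNRNPA1L2, mostly HNRNPA1, and 22.8% of those of HNRNPA1. How fragments that match several of these genes were counted is not given in the sources used here, and the values of both copies are uncertain for this reason. The FPKM values of HNRNPA1P48 imply an exon length of 1377 bases, against 1924 in GENCODE release 29, and those of HNRNPA1L2 imply 3011 bases, against 1372. The authors' gene models of both copies therefore differ from those on which the shared words were counted.

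**Figure D3:**
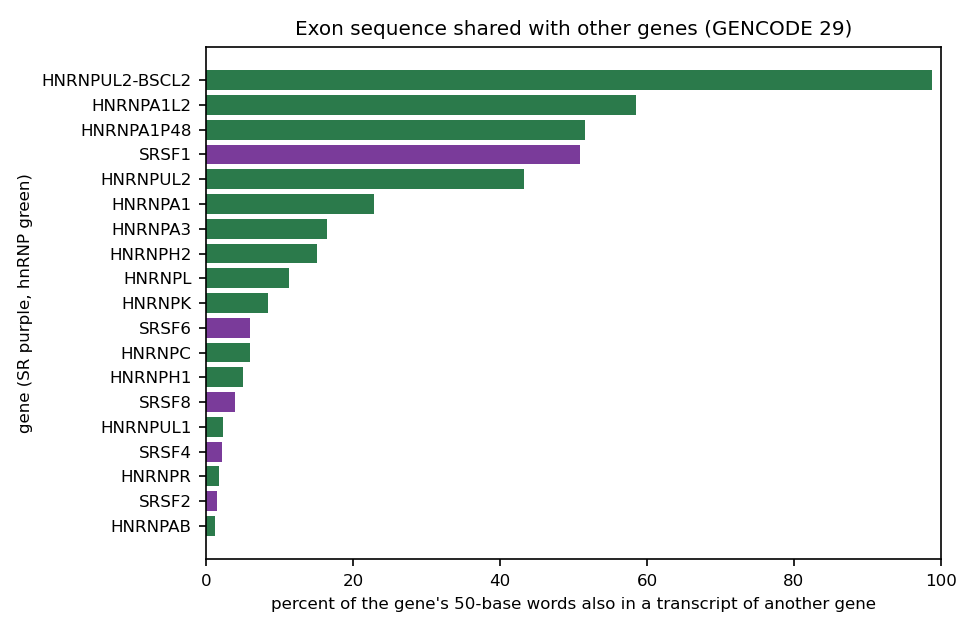
Percent of the 50-base words of each gene's transcripts that also occur in a transcript of another gene of GENCODE release 29, for the genes with at least 1%. The copies of HNRNPA1, the readthrough HNRNPUL2-BSCL2, SRSF1 and HNRNPUL2 stand out with between 43.2% and 98.8%.

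In the other hnRNP A and B genes the I13 mean was slightly higher and the intervals included 0. HNRNPA2B1, which binds sorting signals in RNA, had 133, 140 and 127 FPKM in the control and 144, 123 and 152 FPKM in the I13 libraries, where I13 replicate 2 was the lowest of all 6. HNRNPAB had 155, 161 and 145 FPKM in the control and 158, 165 and 168 FPKM in the I13 libraries, with only I13 replicate 1 inside the control range. Its log2 fold change was 0.095 with an interval from -0.032 to 0.22. HNRNPA0 and HNRNPA3 had log2 fold changes of 0.040 and 0.051.

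HNRNPM and HNRNPD were above the control range in each I13 library. HNRNPM, a regulator of alternative exons, had 67.1, 67.5 and 67.3 FPKM in the control and 74.1, 70.2 and 70.1 FPKM in the I13 libraries. The control libraries were tightly grouped and all I13 libraries were above them. Limma gave a log2 fold change of 0.086 with a standard error of 0.042, an unadjusted p of 0.0796 and an adjusted p of 0.954. It was 0.098 in the 4 libraries and 0.063 within the pair, and with a term for the pair the unadjusted p was 0.0400. HNRNPD, which binds AU-rich elements and promotes the decay of mRNAs that hold them, had 69.7, 70.5 and 66.0 FPKM in the control and 70.6, 72.1 and 75.3 FPKM in the I13 libraries, a log2 fold change of 0.081 with an interval from -0.032 to 0.19. The relative HNRNPDL had 74.2 ± 5.46 FPKM (SD, n = 3) in control and 77.9 ± 7.47 FPKM (SD, n = 3) in I13 cells.

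HNRNPC and HNRNPF were the most even of the genes. HNRNPC had 106, 107 and 107 FPKM in the control and 110, 107 and 109 FPKM in the I13 libraries. The groups did not overlap, but the difference was small, with a log2 fold change of 0.029 and an interval from -0.061 to 0.12. HNRNPF, which binds runs of guanines like the HNRNPH genes, had 159, 157 and 157 FPKM in the control and 162, 158 and 158 FPKM in the I13 libraries, with an interval of the log2 fold change from -0.080 to 0.10. HNRNPH1, HNRNPH2 and HNRNPH3 had log2 fold changes of 0.051, 0.039 and 0.042. HNRNPK, which binds cytosine-rich RNA and DNA, had a log2 fold change of 0.018, with an interval from -0.093 to 0.13.

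HNRNPL had the lowest log2 fold change of the hnRNP genes, and a single library decided it. It had 37.3, 37.3 and 38.3 FPKM in the control and 36.3, 40.6 and 28.4 FPKM in the I13 libraries, where I13 replicate 3 was the lowest of all and I13 replicate 2 the highest. The log2 fold change was -0.12 with an interval from -0.40 to 0.17, and 0.030 without I13 replicate 3. In the same I13 replicate 3, HNRNPLL was at its highest, with 0.508 FPKM against 0.318 and 0.283 FPKM in I13 replicates 1 and 2. HNRNPUL2 had 7.34, 7.84 and 7.94 FPKM in the control and 7.25, 7.62 and 7.27 FPKM in the I13 libraries (log2 fold change -0.061, standard error 0.064), and 43.2% of its 50-base words are shared with its readthrough. HNRNPU, a nuclear scaffold protein, HNRNPR and HNRNPUL1 had log2 fold changes of 0.016, 0.062 and -0.0041.

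Summed over families, the groups overlapped as well. The 14 SR and TRA2 genes together had 481, 522 and 478 FPKM in the control and 498, 477 and 528 FPKM in the I13 libraries, or between 0.160% and 0.180% of the summed FPKM. The hnRNP and PTBP genes together had 1933, 1944 and 1838 FPKM in the control and 1990, 1872 and 1995 FPKM in the I13 libraries, between 0.625% and 0.681%. In both sums the lowest library of each group was control replicate 3 and I13 replicate 2.

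These libraries were low in most splicing factor genes. In 27 of the 39 genes (69.2%), control replicate 3 was under the mean of the other control libraries and I13 replicate 2 was under that of the other I13 libraries. This held for 34.2% of the genes averaging 10 FPKM or more and for 35.1% of all genes tested. For SR and TRA2 genes it was 11 of 14 genes, none of which was higher in both. Ordered by the mean of both differences, HNRNPH2 came first, with -0.30 in the control and -0.33 in the I13 library on the log2 scale, followed by SRSF12, PTBP2, SRSF11, HNRNPH1 and PTBP3. HNRNPH2 had 17.0, 16.8 and 13.7 FPKM in control replicates 1, 2 and 3 and 17.0, 13.9 and 17.96 FPKM in I13 replicates 1, 2 and 3. The opposite order, with both libraries higher, was found for 5 genes, which were HNRNPL, HNRNPUL1, PTBP1, HNRNPA0 and HNRNPUL2. Median deviations of the 39 genes from their mean over the libraries were -0.052 in control replicate 3, -0.066 in I13 replicate 2 and 0.074 in I13 replicate 3, against 0.0098, 0.016 and 0.0029 for the genes averaging 10 FPKM or more. Over all genes tested they were -0.019, -0.031 and 0.031, in the same direction as in the 39 genes and smaller. The spread within groups was as large as elsewhere, with a median coefficient of variation of 6.23% in both the 33 splicing factor genes and all genes at that level. What sets these libraries apart was not tested.

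**Figure D4:**
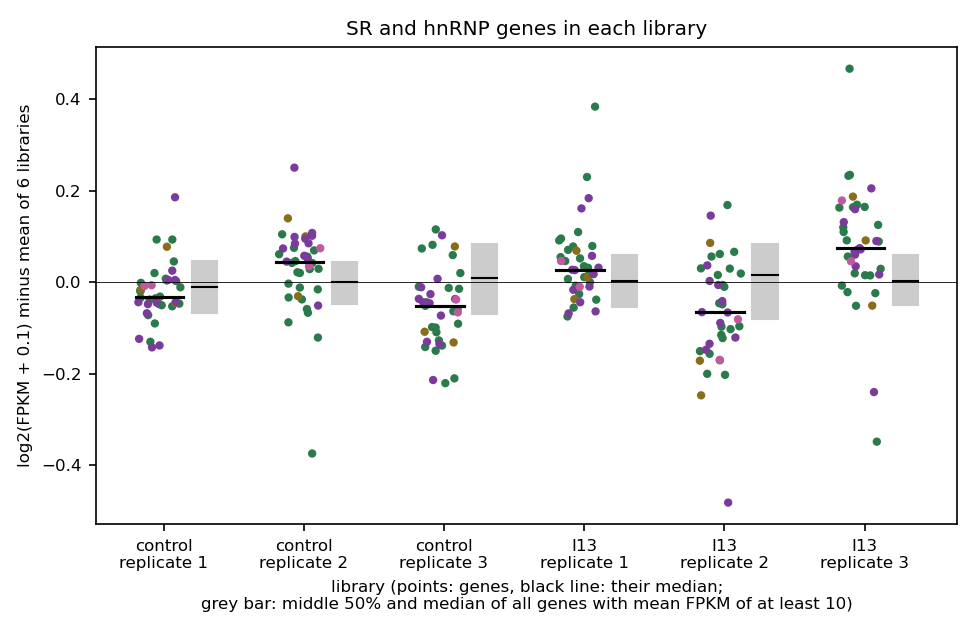
Deviation of each of the 39 genes from its mean over the 6 libraries, on the log2 scale, with the median as a black line and the interquartile range of all genes averaging 10 FPKM or more as a grey bar. The median lies lowest in I13 replicate 2 (-0.066) and control replicate 3 (-0.052) and highest in I13 replicate 3 (0.074).

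The rest of the splicing machinery was examined with 5 lists of 146 genes, of which 144 were in the table and 136 were tested. At an unadjusted p under 0.05, 2 of the 136 genes were higher and 0 lower by limma (1.47%, against 5.14% of all genes). By voom 1 was higher (against 5.39% of all genes), and 0 passed the adjusted p by either tool. The median log2 fold change was 0.021, with 88 values positive and 48 negative. The kinases and the import receptor of SR proteins (10 tested, among them SRPK1 and CLK1), the SR-related proteins (22 tested, among them SON and SRRM2) and the hnRNP-like and other regulators (41 tested, among them MBNL1) held no such gene, with median log2 fold changes of 0.012, 0.021 and 0.027. The medians of the core spliceosome and of the exon junction list, described next, were 0.023 and -0.014. The core spliceosome held 1 of 48, SNRPF, a subunit of the Sm ring. SNRPF had 23.4, 25.3 and 27.0 FPKM in the control and 27.3, 29.5 and 28.6 FPKM in the I13 libraries, and limma gave a log2 fold change of 0.18 with an unadjusted p of 0.0308 and an adjusted p of 0.947. The exon junction complex and nonsense-mediated decay held 1 of 15, MAGOH, a core subunit of that complex. MAGOH had 26.6, 25.7 and 24.5 FPKM in the control and 26.7, 28.6 and 28.99 FPKM in the I13 libraries, and limma gave a log2 fold change of 0.13 with an unadjusted p of 0.0476 and an adjusted p of 0.947. By voom its unadjusted p was 0.133. Both genes had I13 libraries above all control libraries, by a narrow margin.

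The SR genes also share a feature of their annotation. All 12 SR genes and both TRA2 genes have at least 1 transcript that GENCODE release 29 marks as a target of nonsense-mediated decay, against 14 of 23 hnRNP genes, 1 of 3 PTBP genes and 43.2% of the protein-coding genes tested. In SRSF7, 6 of 12 annotated transcripts are of this kind, and in SRSF3 2 of 8. A retained intron transcript is annotated for 9 of 12 SR genes and for 57.3% of the protein-coding genes. The FPKM values count all transcripts of a gene together, so a shift between productive and unproductive isoforms was not measured.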

How the data were processed

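Total RNA of Kasumi-1 cells was made into libraries with the TruSeq Stranded mRNA kit and sequenced by Illumina. FPKM values per Ensembl gene were computed by the authors and deposited as 1 table of 6 libraries. Their processing notes name Trimmomatic, HISAT2, Cufflinks, HTSeq and hg38, with no versions. For annotation and strand setting the sources used here give nothing. The gene set and all lists were chosen with earlier results of these data known.

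Symbols, coordinates and exon lengths were taken from GENCODE release 29, which names 32244 of 32364 identifiers. Differences were computed from the FPKM values as deposited, with limma (version 3.58.1, R 4.3.3). The fit used log2(FPKM + 0.1), the treatment as its only factor and a trended variance, on 18726 genes averaging 0.1 FPKM or more. This scale understates the fold changes of low genes. Fragments were recovered from FPKM and exon length, which gave whole numbers within 0.01 for 95.4% of genes above 0 and for 36 of the 40 genes described here. A further 1319 genes, the other 4 included, were recovered with the exon length their values imply. Voom was run on 13849 genes averaging 10 fragments or more. The code was tested on simulated data. Sequences of the HNRNPA1 copies are not reported here. Values for every library were given for genes with an unadjusted p under 0.05, the 2 most abundant of each family, and the 3 largest increases and decreases above 1 FPKM. HNRNPA2B1, HNRNPC, HNRNPD, HNRNPF, HNRNPH2, HNRNPLL, HNRNPM and SRSF12 were added after their values were seen. From each list of other splicing genes, up to 2 genes with an unadjusted p under 0.05 were named, and further list genes are examples of membership. The alternatives are given at the end.

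Libraries of a group were not copies of each other, since their chi-square over genes was between 3.14 and 8.30 per gene.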

Additional observations from a re-analysis of the deposited data

How the results depend on the processing

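No splicing factor gene passed the adjusted p under any of the 19 alternatives. The number with an unadjusted p under 0.05 was 1 of 39. It was 0 by limma without a trend (4.77% of all genes) and 2 by voom (5.39%). It was 2 in the 4 libraries without control replicate 3 and I13 replicate 2 (8.04%) and 2 with a term for this pair (7.62%). By voom with that term, chosen after seeing the data, it was 6 (10.2%). With 1 library left out it was between 0 and 4. The 0 came without control replicate 3 (6.27% of all genes) and without I13 replicate 1 (4.34%), the 4 without I13 replicate 2 (6.56%). The number without overlap, 5, was 2 under median scaling (9.47% of all genes), 2 under quantile normalization (9.94%) and 17 in the 4 libraries (38%). With 1 library left out it was 7 without control replicate 1 (16.3%), 8 without control replicate 2 (17%) and 8 without control replicate 3 (22.3%). It was 7 without I13 replicate 1 (17.2%), 13 without I13 replicate 2 (23.4%) and 5 without I13 replicate 3 (18.4%). The number of other splicing genes with an unadjusted p under 0.05 was 2. It was 1 at a minimum mean FPKM of 1 (5.05% of all genes), 0 under median scaling (4.89%) and 1 with the replicate block (4.6%). It was 0 without a trend (4.77%), 1 with robust variances (5.17%) and 1 by voom (5.39%). In the 4 libraries it was 9 (8.04%), with the term 4 (7.62%) and by voom with the term 9 (10.2%). With 1 library left out it was between 1 and 4. The 1 came on leaving out control replicate 1 (4.07% of all genes), control replicate 2 (4.25%) or I13 replicate 3 (4.87%). The 4 came on leaving out control replicate 3 (6.27%) or I13 replicate 2 (6.56%). The median log2 fold change of the 39 genes was 0.028, and 0.049 in the 4 libraries. With 1 library left out it lay between -0.0059 (without I13 replicate 3) and 0.071 (without I13 replicate 2). The SD over single libraries of the median deviation of the splicing factor genes was 0.055. Leaving out 1 library moves a group mean by less than that library's deviation, so this SD is no test of stability. The difference of the summed FPKM of SR and TRA2 genes was 7.09. It lay between -6.61 (without I13 replicate 3) and 21.3 (without control replicate 2). For hnRNP and PTBP genes it was 47.3, and between 13.7 (without control replicate 3) and 87.4 (without I13 replicate 2). Directions of genes near 0 turned. In the 4 libraries SRSF1 was at 0.025 and TRA2A at 0.050, by voom with the term TRA2A was at 0.00055, and HNRNPA1 was at -0.057 after quantile normalization. With 1 library left out, values ranged from -0.081 to 0.014 in SRSF6, -0.041 to 0.063 in SRSF1, -0.014 to 0.049 in TRA2B, -0.090 to 0.083 in TRA2A, -0.048 to 0.071 in HNRNPA1, -0.045 to 0.037 in PTBP1, -0.11 to 0.028 in PTBP3 and -0.23 to 0.030 in HNRNPL. The causes were not tested.

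Replicate numbers are shared between the groups, but deviations of same-numbered libraries correlated at 0.32, -0.38 and -0.30, so the numbers were not taken as pairs. With the replicate block the number of splicing factor genes with an unadjusted p under 0.05 was 1 (4.6% of all genes), as without it (5.14%).

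Depth limits SRSF12 and HNRNPLL, with at most 46 fragments per library. Counting error was not separated from the spread between libraries.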

Other observations

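Pseudogenes named after the hnRNP genes were present in the table, 8 of them with a mean FPKM above 1, and share sequence with the parent genes. HNRNPCP2 and HNRNPA1P10 were the highest, with 20.1 and 14.4 FPKM, followed by HNRNPKP4 with 4.69 FPKM and HNRNPA3P6 with 2.87 FPKM. The genes named next were chosen after their values were seen. HNRNPCP1 had 1.82, 2.36 and 1.42 FPKM in the control and 1.15, 0.861 and 1.20 FPKM in the I13 libraries, and limma gave a log2 fold change of -0.73 with an unadjusted p of 0.0113 and an adjusted p of 0.875. HNRNPLP2 had 2.15, 2.00 and 2.50 FPKM in the control and 1.80, 1.37 and 1.75 FPKM in the I13 libraries, where the log2 fold change was -0.41, the unadjusted p 0.0270 and the adjusted p 0.947 by limma. In both, all I13 libraries were below all control libraries, as in 4.64% of all genes tested. The log2 fold changes of the other pseudogenes above 1 FPKM lay between -0.92 in HNRNPA3P5 and 0.29 in HNRNPA1P59. HNRNPC, the parent of HNRNPCP1, was narrowly above the control range in each I13 library, with a log2 fold change of 0.029. Its groups overlapped after median scaling and after quantile normalization. HNRNPLP2 holds 5.39% of the 50-base words of HNRNPL.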
